A study of Mus musculus with 22 samples.

Results

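The 41 genes described here encode enzymes that clear foreign compounds, reactive aldehydes and oxidants, together with the regulators that control them. They were chosen by gene symbol from a table of 37991 genes, by a rule that uses no measured value, although earlier results of these data were known when the list was drawn up, and all 41 symbols were found. The list holds 2 epoxide hydrolases, 16 glutathione transferases, 5 cytochrome P450 genes (the P450 reductase included), 6 aldehyde dehydrogenases, 3 aldo-keto or quinone reductases, a flavin monooxygenase, a sulfotransferase, and 7 regulators and glutathione, thioredoxin or heme enzymes. Detoxification is usually described in phases. Phase 1 enzymes, mainly cytochrome P450s fed with electrons by the reductase Por, oxidise a compound, and phase 2 enzymes couple the product to glutathione or sulfate so that it can be exported. Brain endothelial cells carry such enzymes as a metabolic layer of the blood-brain barrier. The transcription factors NRF2, encoded by Nfe2l2, and the aryl hydrocarbon receptor, encoded by Ahr, are the best known activators of these genes.

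Endothelial cells had been sorted from mouse brain for the surface protein CD31, and their RNA was sequenced in 22 libraries. In the DREADD experiments, receptors that respond to the drug CNO were driven in glutamatergic neurons through the CamKIIa promoter, which is active in excitatory forebrain neurons. Mice labelled C57BL/6 CamKIIa-tTA; TRE-hM3Dq gave 4 activation and 4 activation control libraries, and mice labelled C57BL/6 CamKIIa-tTA; TRE-hM4Di gave 4 silencing and 4 silencing control libraries. Cortex and hippocampus were taken 3 hours after CNO, which all 4 of these groups received. The series text describes the controls as littermates without receptor expression, while their genotype label equals that of the treated mice. In the whisker experiment, C57BL/6 mice with whiskers explored an enriched environment in darkness (3 whisker plus libraries), and mice lacking whiskers sat in a bare cage (3 whisker minus libraries). All whisker libraries pooled 5 pairs of barrel cortices. Whiskers and enriched surroundings changed together in this design, and their parts cannot be told apart. No label states the ages of the mice.

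Read totals ranged from 18387666 to 25163689 in the activation experiment, from 25897142 to 32957916 in the silencing experiment and from 44187482 to 57673270 in the whisker experiment. The 10 endothelial markers summed to between 17846 and 25322 CPM (reads scaled to the same total per library) in every library. Astrocyte markers summed to 377 to 770 CPM in the DREADD libraries, but to 407, 1505 and 1325 CPM in whisker minus 1, 2 and 3. The library labelled silencing control 2 stood apart from the other silencing controls. It held 469 CPM of Fkbp5, a gene induced by glucocorticoids, where the other 3 held 10.3 to 21.6 CPM and the 4 silencing libraries 248 to 342 CPM. Results of the silencing experiment are therefore given with and without it. Without it, high Fkbp5 and silencing coincide in that experiment and cannot be told apart. Fewer cells of a type and less RNA per cell cannot be told apart in such bulk samples.

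The stretches of DNA before 6 of the genes are shown because their transcripts carry the main differences reported below. Each line gives the 250 bases before the transcription start, 5′ to 3′ on the gene's strand, from RefSeq on the build GRCm38.p6. Motifs of 4 kinds were sought on both strands, and matches are in capitals. TGACNNNGC is the core of the antioxidant response element bound by NRF2. GCGTG is the core of the xenobiotic response element bound by the aryl hydrocarbon receptor. TTANNTAA is a loose form of the D-box of clock-controlled genes, with its middle bases left free, and CACGTG is the E-box. The stretches are Akr1e1 at chr13:4609165-4609414, minus strand; Aldh4a1 at chr4:139622644-139622893, plus strand; Por at chr5:135688895-135689144, plus strand; Sult1a1 at chr7:126676419-126676668, minus strand; Ephx1 at chr1:181017570-181017819, minus strand; and Gstm5 at chr3:107895604-107895853, plus strand.
Akr1e1: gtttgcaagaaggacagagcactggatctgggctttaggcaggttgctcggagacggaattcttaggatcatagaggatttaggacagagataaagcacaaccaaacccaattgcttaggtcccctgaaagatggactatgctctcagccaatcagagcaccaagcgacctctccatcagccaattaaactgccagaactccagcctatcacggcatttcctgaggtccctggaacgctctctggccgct
Aldh4a1: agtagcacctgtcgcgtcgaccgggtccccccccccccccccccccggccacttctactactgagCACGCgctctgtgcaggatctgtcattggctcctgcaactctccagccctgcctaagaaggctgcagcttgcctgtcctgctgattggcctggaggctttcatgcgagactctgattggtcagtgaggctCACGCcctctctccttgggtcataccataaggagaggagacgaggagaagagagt
Por: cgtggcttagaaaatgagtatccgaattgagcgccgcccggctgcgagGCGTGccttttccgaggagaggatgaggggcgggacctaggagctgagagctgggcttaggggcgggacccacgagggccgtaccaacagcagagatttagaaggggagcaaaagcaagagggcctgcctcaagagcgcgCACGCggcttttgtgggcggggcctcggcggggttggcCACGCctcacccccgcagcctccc
Sult1a1: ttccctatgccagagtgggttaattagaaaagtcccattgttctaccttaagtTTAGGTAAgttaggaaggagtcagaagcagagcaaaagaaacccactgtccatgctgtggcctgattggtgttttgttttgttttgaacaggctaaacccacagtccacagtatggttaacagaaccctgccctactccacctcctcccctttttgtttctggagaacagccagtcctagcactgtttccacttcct
Ephx1: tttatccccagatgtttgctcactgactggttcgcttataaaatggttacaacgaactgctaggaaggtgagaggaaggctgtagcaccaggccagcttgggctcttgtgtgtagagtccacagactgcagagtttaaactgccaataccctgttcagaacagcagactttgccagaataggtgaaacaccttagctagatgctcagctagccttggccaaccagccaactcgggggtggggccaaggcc
Gstm5: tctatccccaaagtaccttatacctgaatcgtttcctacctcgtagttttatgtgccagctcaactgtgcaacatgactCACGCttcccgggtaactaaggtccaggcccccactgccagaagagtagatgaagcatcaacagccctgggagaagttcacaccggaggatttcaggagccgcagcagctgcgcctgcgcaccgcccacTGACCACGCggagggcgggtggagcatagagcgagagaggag

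Por held 3 matches to the xenobiotic response element and Aldh4a1 held 2, while the stretches of Akr1e1 and Ephx1 matched none of these letters. In Gstm5 an antioxidant and a xenobiotic match overlapped, and a second xenobiotic match lay farther upstream. Sult1a1 held the single match to the loose D-box form among the members (6.93% of all genes), and Aldh3a2 the single E-box match (8.09%). Of the 41 members, 30 had an entry in the promoter table, which spans 250 bases before to 50 after each start. A match to the antioxidant element was found for 7 of these 30 (Aldh9a1, Gclm, Gstm5, Gstm7, Mgst1, Nfe2l2 and Txnrd1), where 14.0% of all 27025 genes in the table had one. A match to the xenobiotic element was found for 14 of 30, against 35.2% of all genes. Some genes had several entries, which raises their share. Of the 43 entries of the members, 7 matched the antioxidant and 17 the xenobiotic element, against 12.4% and 32.4% of all 32851 entries. A match describes the letters in this window and is not evidence of binding.

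The members covered a wide range of levels in control mice. Exon length here merges the exons of all annotated transcripts of a gene, 1.27 kilobases for Gsta4 and 5.13 for Aldh2. The order depends on this choice. By CPM alone Aldh2 stood above Gsta4 in the activation controls, at means of 470 and 128 CPM. Compared per kilobase of exon, the highest in the activation controls were Gsta4, a transferase that acts on aldehydes from oxidised lipids, at 101 ± 11.7 CPM per kilobase, and Ephx1, the microsomal epoxide hydrolase, at 100.001 ± 20.3 (SD, n = 4). Next came Aldh2, the mitochondrial enzyme that oxidises acetaldehyde, at 91.6 ± 6.66, the mu class transferase Gstm1 at 60.6 ± 5.17 and the P450 Cyp2d22 at 49.1 ± 5.22. These 5 genes held the first 5 places in all 3 control groups, although Gsta4 and Ephx1 changed places and did not differ beyond their spread. Among the low members, Cyp1b1 stood at 0.419 ± 0.107, Nqo1, a quinone reductase, at 1.28 ± 0.483, and Akr1b3, the aldose reductase, at 0.215 ± 0.0455 CPM per kilobase. Gstm6 stayed under 0.9 CPM in all 22 libraries and was not tested. Aldh1a1, which makes retinoic acid, was the least even member in the activation controls, with 5.98, 27.5, 60.9 and 8.19 CPM. Libraries of the silencing and whisker experiments held 3.11 to 13.9 CPM of it.

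**Figure D1:**
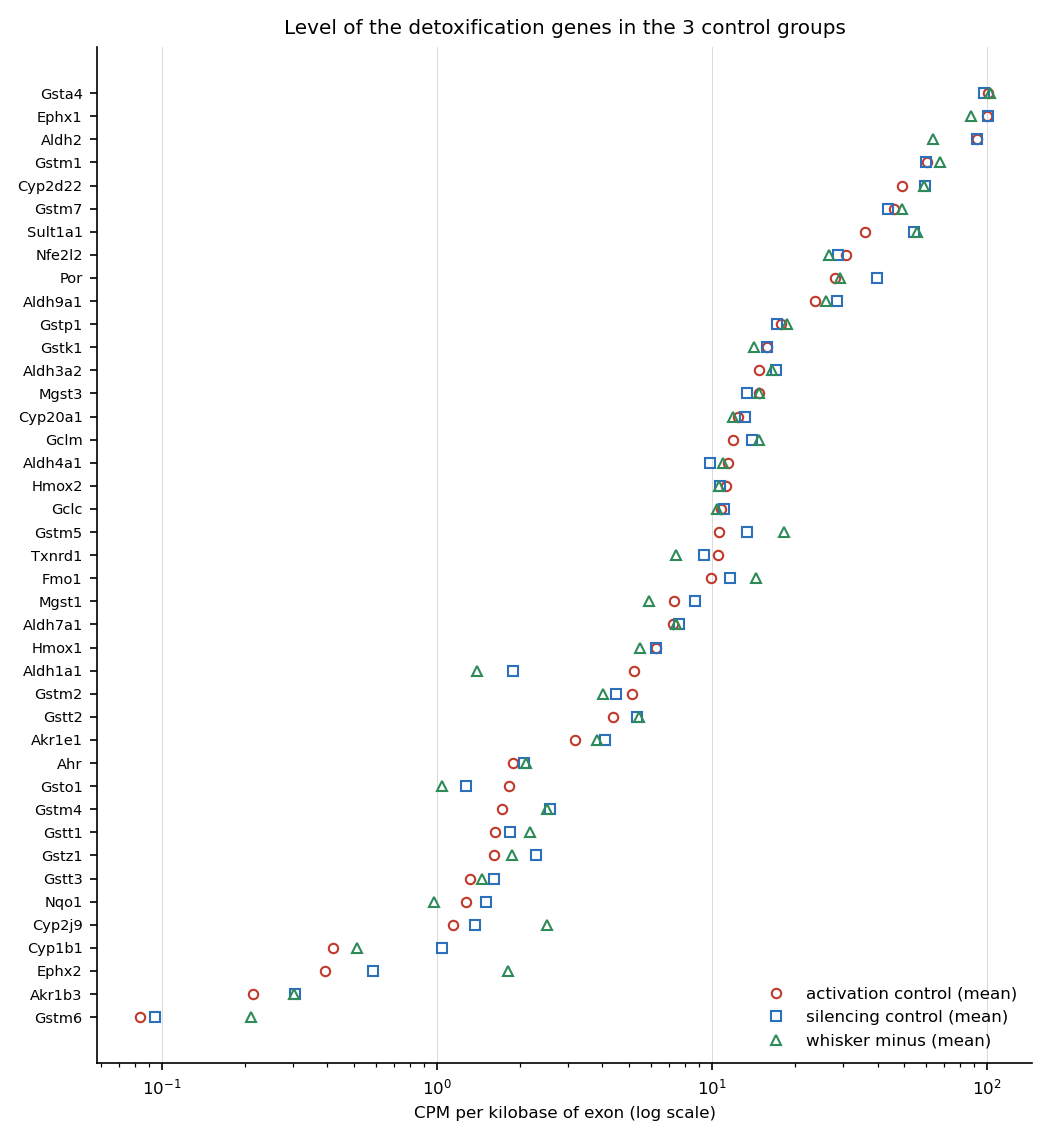
Mean level of each of the 41 genes in the activation control (circles, n = 4), silencing control (squares, n = 4) and whisker minus (triangles, n = 3) libraries, in CPM per kilobase of exon on a log axis. Gsta4, Ephx1, Aldh2, Gstm1 and Cyp2d22 are the highest in all 3 groups, and Gstm6 is the lowest.

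Each comparison set treated libraries against their own controls by limma on log2(CPM + 1), with p-values adjusted over all genes tested, and a gene is said to have risen or fallen where its adjusted p was under 0.05. Libraries with the same replicate number deviated together in every comparison, so the value from a fit with the replicate number as a block is given beside a result wherever it changes the call. In the activation experiment 39 members passed the filter on low values (all but Ephx2 and Gstm6), and 40 did in the silencing and whisker experiments (all but Gstm6).

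**Figure D2:**
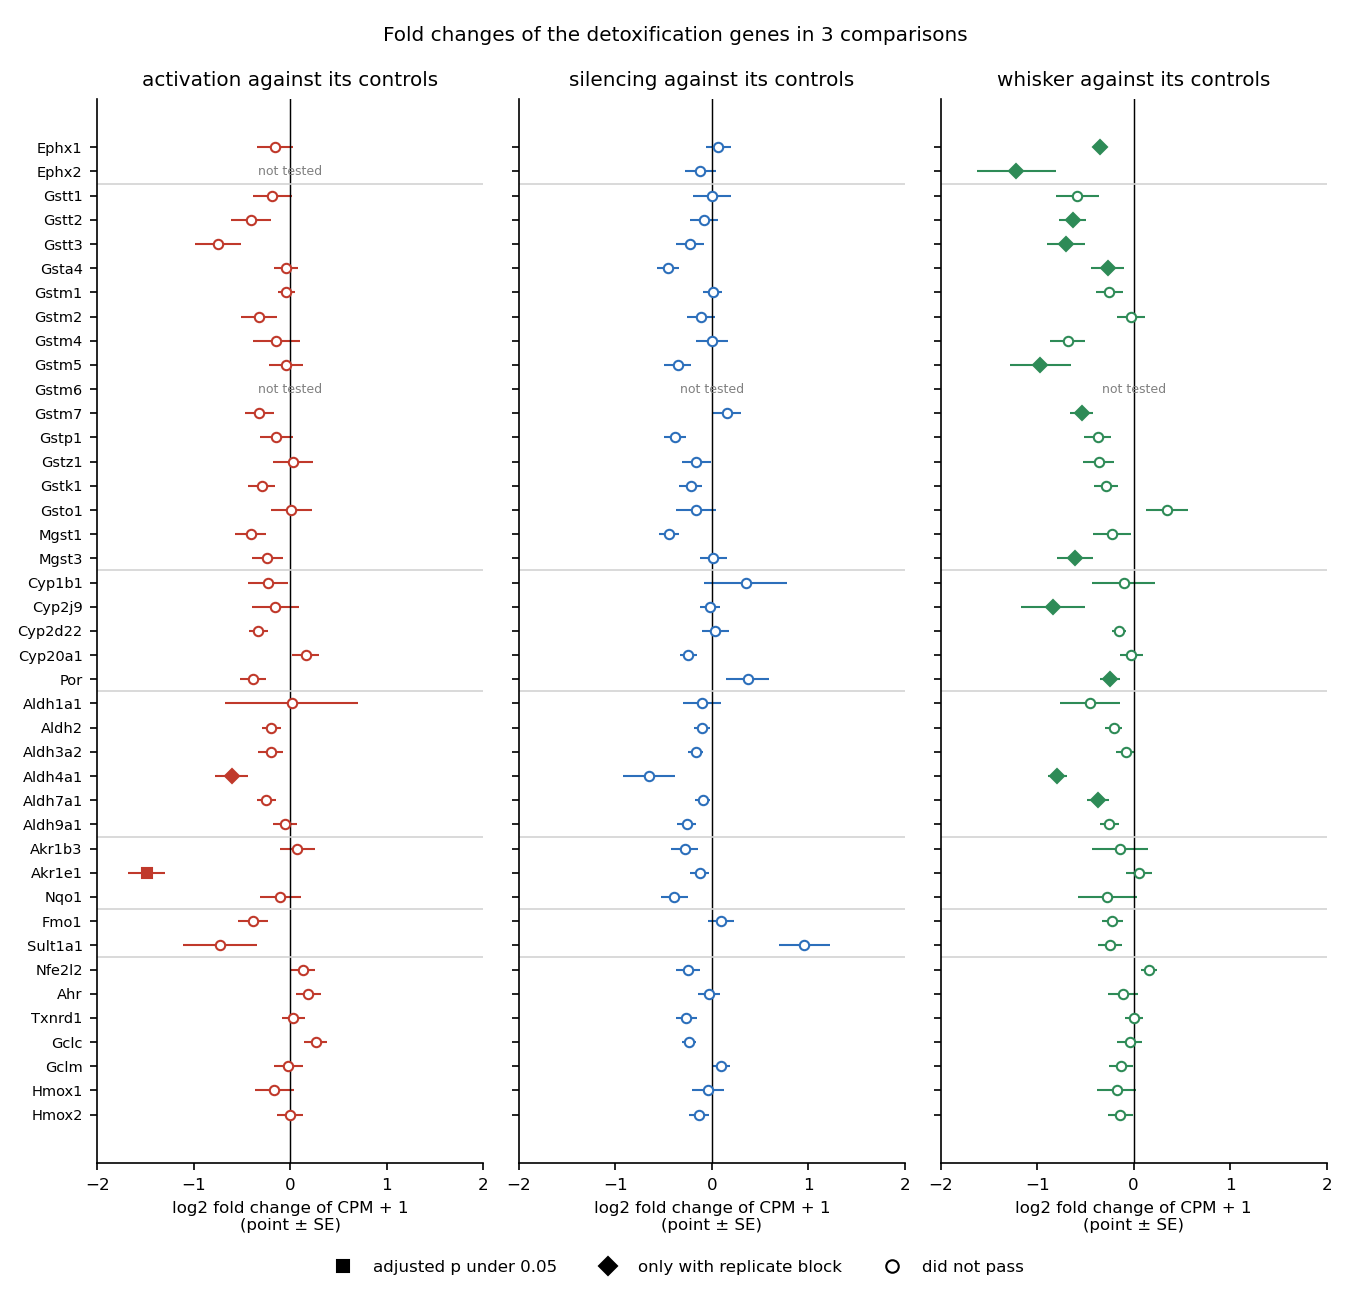
Log2 fold change of CPM + 1 (point) with its SE (bar) for each member in the activation, silencing and whisker comparisons, in the order of the enzyme families, which grey lines separate. Filled squares had an adjusted p under 0.05, filled diamonds only with the replicate block; Akr1e1 stands alone at -1.49 under activation, and 12 diamonds lie below 0 in the whisker comparison.

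In the mice taken 3 hours after neuronal activation, 1 member fell, Akr1e1, a reductase of anhydrofructose. Its level was 3.55, 3.3003, 3.88 and 2.81 CPM in the activation libraries and 15.4, 9.82, 8.15 and 12.9 CPM in their controls. The highest activated library lay well below the lowest control. The means were 3.38 ± 0.448 CPM against 11.6 ± 3.24 CPM (SD, n = 4 and 4), a log2 fold change of -1.49 (SE 0.20) with an adjusted p of 0.04098, or 0.0172 with the replicate block. It was the only 1 of 39 members called, where 0.0699% of all genes tested were called lower and 0.0699% higher. RLE or TMM scaling moved its adjusted p to 0.0542 and 0.0507, and leaving out single libraries gave 0.0435 to 0.145, with the fold change between -1.63 and -1.35. In the other experiments it hardly varied. The silencing libraries held 12.9, 14.5, 13.3 and 13.4 CPM against 14.8, 12.9, 15.8 and 16.3 CPM in their controls, and the whisker plus libraries 14.4, 15.1 and 13.9 CPM against 12.03, 15.2 and 14.6 CPM.

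Among the aldehyde dehydrogenases, Aldh4a1, a mitochondrial enzyme of proline breakdown, fell under activation with the replicate block but not in the limma fit of this experiment without it. The activation libraries held 39.3, 28.4, 44.3 and 32.8 CPM and the controls 71.03, 48.03, 61.3 and 43.6 CPM. The groups overlapped by 1 pair of values, and each activated library lay below the control of the same number. Its log2 fold change was -0.61, with an adjusted p of 0.218 without and 0.0282 with the block, and with the block 2 of 39 members (Akr1e1 and Aldh4a1) were called lower and none higher, against 0.792% and 1.03% of all genes. In every activated library Aldh7a1, which acts in lysine breakdown, lay below every control, with 29.2, 29.9, 32.7 and 33.7 against 37.3, 39.99, 37.03 and 35.6 CPM, but it did not pass the test (log2 fold change -0.25 (SE 0.10), adjusted p = 0.353). Aldh2, Aldh3a2, which oxidises fatty aldehydes, and Aldh9a1 had log2 fold changes of -0.19, -0.20 and -0.05 and did not pass either.

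The P450 genes and the glutathione transferases gave no call under activation, with or without the block. Cyp2d22 had 143, 149, 165 and 151 CPM in the activation libraries and 218, 180.4, 198 and 172 CPM in the controls. Its groups did not overlap, yet the adjusted p was 0.222, or 0.0928 with the block, for a log2 fold change of -0.33 (SE 0.10). Gstt3, a theta class transferase, had 2.39, 1.63, 2.88 and 3.22 CPM against 7.89, 4.24, 4.88 and 3.298 CPM (log2 fold change -0.75 (SE 0.24), adjusted p = 0.252). Por, the electron donor of the P450s, had 83.8, 91.5, 82.5 and 82.6 against 123, 129, 118 and 81.6 CPM, with activation control 4 as low as the activated libraries. In all, 4 of 39 members (Gstt3, Cyp2d22, Aldh7a1 and Akr1e1) lay lower without overlap, which is 10.3% where 3.5% of all genes did so, and none lay higher without overlap (3.65% of all genes).

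At an unadjusted p under 0.05, 8 of 39 members were lower and 1 higher, against 5.84% and 5.58% of all genes. The log2 fold changes of 30 members were below 0 and of 9 above 0 under activation, against 51.6% and 48.4% of all genes tested, and their median was -0.16 against -0.0072 over all genes. By family these were 13 of 15 transferases, 4 of 5 P450 genes, 5 of 6 aldehyde dehydrogenases and both of Fmo1 and Sult1a1. The 7 regulators and their glutathione, thioredoxin and heme enzymes were split, with 3 below and 4 above 0. Nfe2l2 differed by 0.13 (SE 0.13) and Ahr by 0.19 (SE 0.13). Gclc, the catalytic subunit of glutamate-cysteine ligase, which makes the precursor of glutathione, had the highest of these values at 0.26 (SE 0.12) with an adjusted p of 0.426. Nqo1 and Hmox1, common readouts of NRF2, differed by -0.10 (95% interval -0.58 to 0.37) and -0.17 (-0.61 to 0.28). All 12 astrocyte markers and all 6 smooth muscle markers tested lay above 0 in this comparison, none of them called, with sums of 400.4 to 710.2 against 377 to 571 CPM and of 171 to 689 against 142 to 401 CPM. So did all 6 microglia markers (31.5 to 51.7 against 23.7 to 56.5 CPM) and all 4 choroid plexus markers tested (9.88 to 62.7 against 8.59 to 59.05 CPM), and 1 of 5 red blood cell markers fell with the block. Their part in the member values was not tested.

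The authors' deposited table, which holds their own fold changes and p-values, marks 9 of the 41 members as down and 1 as up with activation, where 1.97% and 1.64% of its 37991 genes are marked so, low genes included. It gives an FDR under 0.05 for 4 of the 40 members with an FDR, Akr1e1, Cyp2d22, Aldh4a1 and Gstt3, and for 2.48% of all genes with one.

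**Figure D3:**
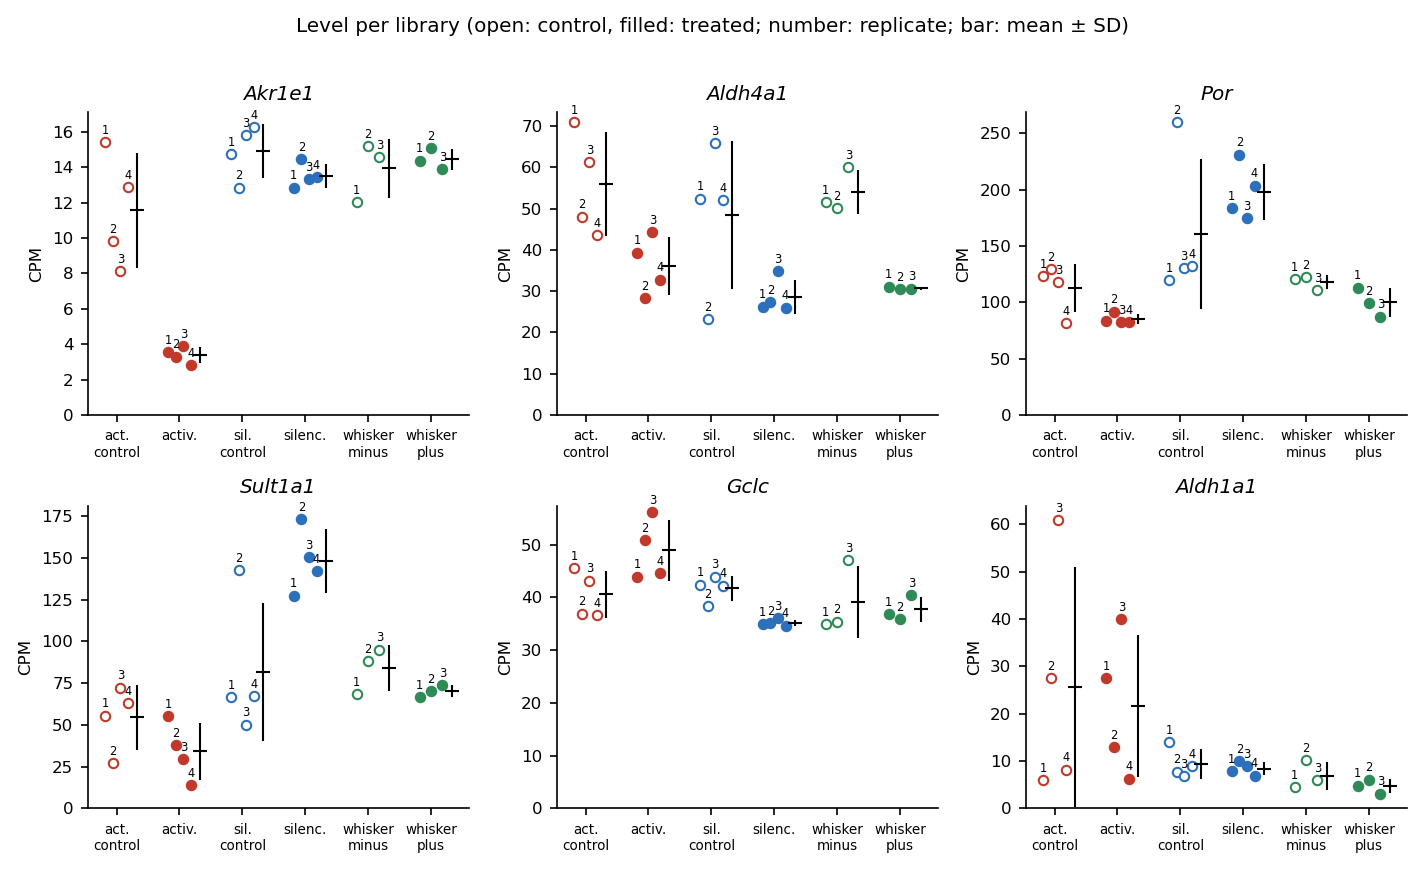
CPM of Akr1e1, Aldh4a1, Por, Sult1a1, Gclc and Aldh1a1 in each library of the 6 groups (open circles are controls, filled circles treated, small numbers the replicate), with the group mean ± SD as a bar. Akr1e1 is low in the 4 activation libraries alone, and silencing control 2 lies above the other silencing controls for Por and Sult1a1 and below them for Aldh4a1.

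Silencing of the same neurons gave no member past the threshold in limma over all 8 libraries, where 0.0538% of all genes were called lower and 0.123% higher. None passed with the block either, where 0.438% were called lower and 0.607% higher. At an unadjusted p under 0.05 there were 10 lower members and 1 higher one of 40, against 11.8% and 4.26% of all genes. DESeq2 called 3 of 40 members (3.55% of all genes) and edgeR none (0.184%). The picture turned on silencing control 2. Without it 7 of 40 members were called. Of the 40, 2 rose, which is 5% and close to the 4.11% of all genes that rose. A further 5 fell, which is 12.5% against 7.35% of all genes. In this fit the libraries with high Fkbp5 are the silencing libraries alone, so these calls cannot be told apart from the difference in Fkbp5.

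The 2 that rose were Sult1a1, which sulfates phenols, and Por. Sult1a1 stood at 127, 173, 150.3 and 142 CPM in the silencing libraries and at 66.7, 50.1 and 67.2 CPM in controls 1, 3 and 4, while silencing control 2 held 143 CPM. Its log2 fold change was 0.96 (SE 0.27) with an adjusted p of 0.155 in all libraries, and 1.26 (SE 0.13) with an adjusted p of 6.21e-04 without that control. Por had 184, 231, 175 and 203 CPM against 119.6, 131 and 132 CPM in the same 3 controls and 259.9 CPM in silencing control 2, the highest value of the experiment. Its log2 fold change went from 0.37 (SE 0.22), adjusted p = 0.439, to 0.63 (SE 0.10), adjusted p = 0.00539. For both genes the libraries other than silencing control 2 did not overlap between the groups. Fmo1, the flavin monooxygenase, did not pass (0.24 (SE 0.07), adjusted p = 0.0663 without that control). Cyp1b1 varied most among the controls, at 5.87, 14.02, 2.202 and 2.21 CPM, against 5.76, 7.09, 5.47 and 6.87 CPM after silencing.

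The 5 members that fell without silencing control 2 were Gsta4, Mgst1, Gclc, Txnrd1 and Aldh4a1. Gsta4 had 93.7, 97.2, 94.1 and 74.2 CPM against 113, 114, 124 and 144 CPM, with all 4 silencing libraries below all controls. Its log2 fold change was -0.46 (SE 0.11), with an adjusted p of 0.124 in all libraries and 0.0268 without silencing control 2. Mgst1, a microsomal transferase, had 13.1, 13.6, 11.8 and 11.7 CPM against 16.02, 19.4, 15.8 and 18.6 CPM, again without overlap (log2 fold change -0.44 (SE 0.10), adjusted p = 0.108 and 0.0395). Gclc was the most even of them, at 34.9, 35.1, 36.01 and 34.6 CPM against 42.4, 38.3, 43.9 and 42.3 CPM, a log2 fold change of -0.24 (SE 0.07) with an adjusted p of 0.165 and 0.0284. Txnrd1, the cytosolic thioredoxin reductase, had 56.1, 49.7, 51.3 and 61.7 CPM against 66.6, 54.6, 70.5 and 73.2 CPM and overlapped with its controls (adjusted p = 0.2697 and 0.033005). For Aldh4a1, silencing control 2 held 23.3 CPM, less than any silencing library. It stood at 26.2, 27.4, 34.8 and 26.03 CPM after silencing and at 52.4, 65.8 and 52.1 CPM in the other controls, and its log2 fold change was -0.65 (SE 0.27) with all libraries and -0.97 (SE 0.12) without that control (adjusted p = 0.277 and 0.00184).

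Every silencing library lay below every control for 6 of 40 members (Gsta4, Gstp1, Mgst1, Cyp20a1, Aldh9a1 and Gclc), which is 15% where 7.3% of all genes did so, and no member lay higher without overlap (2.25% of all genes). Gstp1, the pi class transferase, had 24.7, 20.6, 16.5 and 20.2 against 26.6, 27.6, 26.6 and 26.3 CPM. Cyp20a1, a P450 without a settled substrate, had 25.9, 26.3, 25.3 and 23.4 against 28.5, 27.1, 34.4 and 30.7 CPM. Aldh9a1, which makes a precursor of carnitine, had 78.6, 87.02, 67.8 and 90.6 against 102, 92.1, 96.8 and 95.8 CPM. None of these 3 passed the test with or without silencing control 2. In sign, 29 of 40 members were below and 11 above 0, against 66.3% and 33.7% of all genes, with a median of -0.118 against -0.073, so that the list lay close to the background. Endothelial markers lay below 0 for 9 of 10 genes in the same comparison, and summed to 17846 to 20044 against 19191 to 25322 CPM. Of these, 1 fell with and without the block, Kdr, the main receptor of the growth factor VEGF, at 459.6 to 689 against 1068 to 1493 CPM. All 5 red blood cell markers lay below 0, with sums of 339 to 516 against 357 to 782 CPM, and none was called. All 9 pericyte markers lay above 0, with sums of 980 to 2333 against 826 to 2624 CPM, and none was called. Their part in these values was not tested. The authors' deposited table marks 5 members down and 1 up for silencing (1.59% and 1.9% of all its genes), and gives an FDR under 0.05 for 2 of 40, Mgst1 and Sult1a1 (3.15% of all genes with one).

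The effects of activation and silencing were set against each other in a single fit of the 16 DREADD libraries. Akr1e1 was the only 1 of 40 members whose effects differed (0.854% of all genes were called lower and 1.46% higher): the activation effect minus the silencing effect was -1.36 on the log2 scale (SE 0.22, adjusted p = 0.00623), and -1.29 without silencing control 2 (adjusted p = 0.00401). For 3 further members the difference passed in other fits. For Por the difference was -0.75 (SE 0.28) with an adjusted p of 0.162, or 0.0373 with the block and 0.00479 without silencing control 2. For Gclc it was 0.50 (SE 0.13), with adjusted p-values of 0.0554, 0.0374 and 0.0273 in the same order. For Sult1a1 it was -1.68 (SE 0.52), and it passed only without silencing control 2 (adjusted p = 0.09603, 0.0616 and 0.0231). With the block 2.33% of all genes were called lower and 4.02% higher, and without that control 2.65% and 4.07%. At an unadjusted p under 0.05, 5 of 40 members were lower and 3 higher (5.94% and 10.8% of all genes), and 22 lay below and 18 above 0 (41.8% and 58.2%). For Aldh4a1, which lay low under both treatments, the difference was 0.05 (SE 0.35) with a 95% interval of -0.69 to 0.78, and 0.36 (SE 0.24) with an interval of -0.15 to 0.86 without silencing control 2.

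The whisker experiment held the most members with lower values. In limma without the block no gene of any kind was called (0% lower and 0% higher), and 16 of 40 members had an unadjusted p under 0.05 with lower values (9.67% of all genes), against none with higher values (3.3%). DESeq2 called 6 of 40 members (3.18% of all genes) and edgeR none (0%). With the replicate block 12 of 40 members fell, which is 30% where 5.6% of all genes fell, and none rose (2.99% of all genes). Every whisker plus library lay below every whisker minus library for 17 of 40 members, which is 42.5% against 13.4% of all genes. The reverse held for Nfe2l2 alone (5.65% of all genes). The log2 fold changes of 36 of 40 members were below 0 and of 4 above, against 64% and 36% of all genes, and their median was -0.247 against -0.068.

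**Figure D4:**
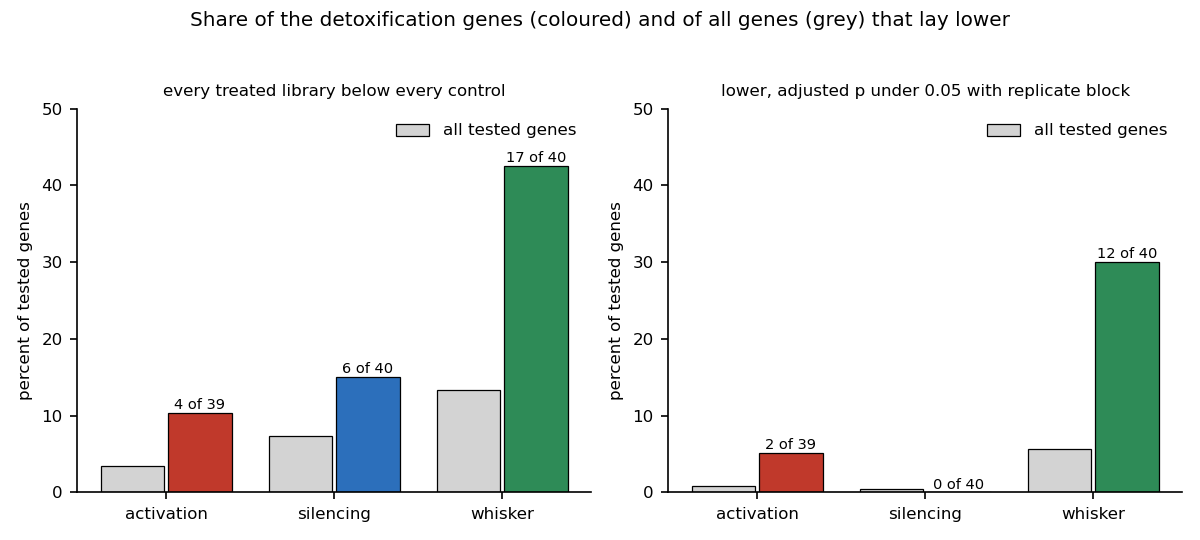
Percent of tested genes that lay lower in the treated libraries without overlap (left) and that fell with an adjusted p under 0.05 in the fit with the replicate block (right), for all genes (grey) and for the members (coloured, with their number). The coloured bars of the whisker comparison stand at 42.5% and 30%, against 13.4% and 5.6% of all genes.

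Aldh4a1 led the aldehyde dehydrogenases. It stood at 31.1, 30.5 and 30.6 CPM in the whisker plus libraries and at 51.7, 50.2 and 60.1 CPM in the whisker minus libraries. The 3 values with whiskers lay within 1 CPM of each other and far below the lowest control. The means were 30.7 ± 0.318 CPM against 53.98 ± 5.36 CPM (SD, n = 3 and 3), a log2 fold change of -0.79 (SE 0.08) with an adjusted p of 0.00229 with the block and 0.164 without it. Aldh7a1 fell with the block as well, from 33.98, 40.1 and 40.9 to 29.9, 31.1 and 26.9 CPM (-0.37 (SE 0.10), adjusted p = 0.0427, 0.2704 without the block). Aldh2 and Aldh9a1 lay lower in each library but did not pass, at 296, 301 and 256 against 318, 341 and 321 CPM and at 75.4, 78.5 and 67.1 against 95.7, 83.03 and 84.9 CPM (adjusted p = 0.0602 and 0.0562 with the block).

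Both epoxide hydrolases fell with the block, but their libraries were arranged differently. Ephx1 was nearly constant with whiskers, at 132, 134 and 134 CPM, against 158, 178 and 175 CPM without (log2 fold change -0.35 (SE 0.06), adjusted p = 0.009897 with the block and 0.208 without). Ephx2, the soluble epoxide hydrolase that breaks down epoxy fatty acids, had 0.822, 1.402 and 1.21 CPM against 1.49, 6.65 and 5.34 CPM. Whisker minus 1 was close to the whisker plus libraries here, and whisker minus 2 and 3 were several times higher. Its log2 fold change was -1.22 (SE 0.27), with an adjusted p of 0.0252 with the block and 0.296 without.

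Of the 15 transferases tested, 14 lay below 0 and 6 fell with the block. Gstt2 had 16.1, 14.6 and 12.2 CPM against 22.4, 24.1 and 21.3 CPM (log2 fold change -0.63 (SE 0.12), adjusted p = 0.0137 with the block and 0.201 without). Gstm7 had 54.6, 53.7 and 52.8 CPM against 75.5, 93.3 and 67.96 CPM (-0.54, adjusted p = 0.00893 and 0.217). For these genes the groups were well apart in all libraries. Mgst3, a microsomal transferase that also acts in leukotriene synthesis, had 10.7, 12.3 and 8.07 CPM against 15.2, 18.9 and 14.5 CPM (-0.61, adjusted p = 0.0234 and 0.269). Gstt3 had 2.69, 3.79 and 2.73 CPM against 5.12, 6.45 and 5.19 CPM (-0.70, adjusted p = 0.0426 and 0.256). Gsta4 had 119.6, 116 and 85.4 CPM against 136, 150.4 and 102 CPM, which overlap, and fell only within the numbered pairs (-0.27, adjusted p = 0.0273 and 0.574). Its log2 fold change was -0.15, -0.43 and -0.12 without whisker minus 2, whisker minus 3 or whisker plus 3. Gstm5 had 11.03, 10.5 and 9.97 CPM against 13.1, 37.1 and 20.1 CPM, a spread between controls like that of Ephx2 (-0.97, adjusted p = 0.03001 and 0.292). Without whisker minus 2 its log2 fold change was -0.59.

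A further 4 transferases lay lower in every whisker plus library without passing the test even with the block. Gstm4 had 2.37, 2.35 and 2.105 against 3.68, 4.32 and 4.84 CPM and Gstp1 25.9, 19.7 and 20.8 against 26.5, 32.7 and 27.6 CPM. Gstt1 had 1.46, 2.48 and 1.76 against 2.65, 3.92 and 3.42 CPM and Gstz1, which also acts in tyrosine breakdown, 7.42, 7.46 and 6.62 against 8.55, 9.07 and 11.02 CPM. Their adjusted p-values with the block were 0.0644, 0.0967, 0.107 and 0.194. The mitochondrial and peroxisomal Gstk1 also did not overlap, at 17.5, 17.2 and 15.9 against 22.7, 18.3 and 21.5 CPM, with an unadjusted p above 0.05. Gstm1, Gstm2 and Mgst1 had log2 fold changes of -0.25, -0.02 and -0.22, and Gsto1, of the omega class, was the 1 transferase above 0 at 0.35.

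Among the P450 genes, Cyp2j9, which oxidises arachidonic acid, fell with the block: it had 2.79, 4.68 and 4.78 CPM against 4.46, 9.35 and 11.5 CPM (-0.83, adjusted p = 0.0245 with the block and 0.352 without). Whisker minus 1 lay among the whisker plus libraries. Por fell narrowly with the block, at 113, 99.3 and 87.1 CPM against 120.4, 123 and 111 CPM (-0.24, adjusted p = 0.04904 and 0.389). Without whisker plus 3 the log2 fold change of Por was -0.15. Cyp2d22 did not overlap between the groups, at 219.7, 198 and 206 against 235, 223 and 235 CPM (adjusted p = 0.106 with the block). Cyp20a1 and Cyp1b1 differed by -0.02 and -0.10 on the log2 scale.

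None of the 7 regulators and glutathione or heme enzymes was called, and 5 lay below 0. Nfe2l2 had 110.5, 113 and 114 CPM with whiskers against 94.2, 98.6 and 110.4 CPM without, all higher by a small margin (0.16 (SE 0.08), adjusted p = 0.476, 0.136 with the block). Txnrd1 differed by 0.01 (95% interval -0.22 to 0.23), Ahr by -0.11 (-0.46 to 0.24) and Gclc by -0.04 (-0.35 to 0.27). Gclm, the modifier subunit of the same ligase, and the heme oxygenases Hmox1 and Hmox2 lay at -0.13, -0.18 and -0.14. The reductases were not called either, with -0.15 for Akr1b3, 0.05 for Akr1e1 and -0.27 for Nqo1, nor were Fmo1 at -0.22 and Sult1a1 at -0.24. Aldh1a1 and Aldh3a2 had -0.45 and -0.08.

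Markers of astrocytes also lay lower with whiskers, and some members, not all, shared their pattern over the libraries. All 12 astrocyte markers lay below 0 in the whisker comparison, with a median log2 fold change of -1.15, and 7 of them fell with the block. Their sum was 442, 484 and 481 CPM in the whisker plus libraries, against the high values of whisker minus 2 and 3 and the low value of whisker minus 1 given above. Of the 40 members 16 (40%) were likewise higher in both whisker minus 2 and 3 than in the other 4 libraries, among them Ephx1, Ephx2, Gstm5, Gstt3, Aldh7a1 and Cyp2j9 of those that fell, where 20.3% of all genes were. All 7 smooth muscle markers and all 4 oligodendrocyte markers tested were below 0 as well, none of them called, with sums of 147 to 443 against 90.1 to 1477 CPM and of 30.5, 30.4 and 25.6 against 28.3, 50.8 and 63.5 CPM. All 6 microglia markers tested and all 5 red blood cell markers lay above 0, with sums of 35.5 to 90.7 against 30.3 to 45.0 CPM and of 620 to 1526 against 600 to 803 CPM, and 2 of the latter rose with the block. The part of these cells in the member values was not tested. In whisker minus 1 alone, 23 of 40 members stood above all 3 whisker plus libraries and 5 below them (57.5% and 12.5%), where 25.6% and 24.5% of all genes did so. The log2 fold changes of the 12 members that fell were also computed against whisker minus 1 alone, with no test. They were -0.73 for Aldh4a1, -0.62 for Gstt2, -0.60 for Gstt3, -0.53 for Mgst3, -0.48 for Gstm7 and -0.36 for Gsta4. Smaller ones were -0.28 for Por, -0.24 for Ephx1 and -0.21 for Aldh7a1. For Gstm5, Ephx2 and Cyp2j9, with -0.97, -1.22 and -0.83 in all libraries, they were -0.30, -0.23 and -0.13.

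**Figure D5:**
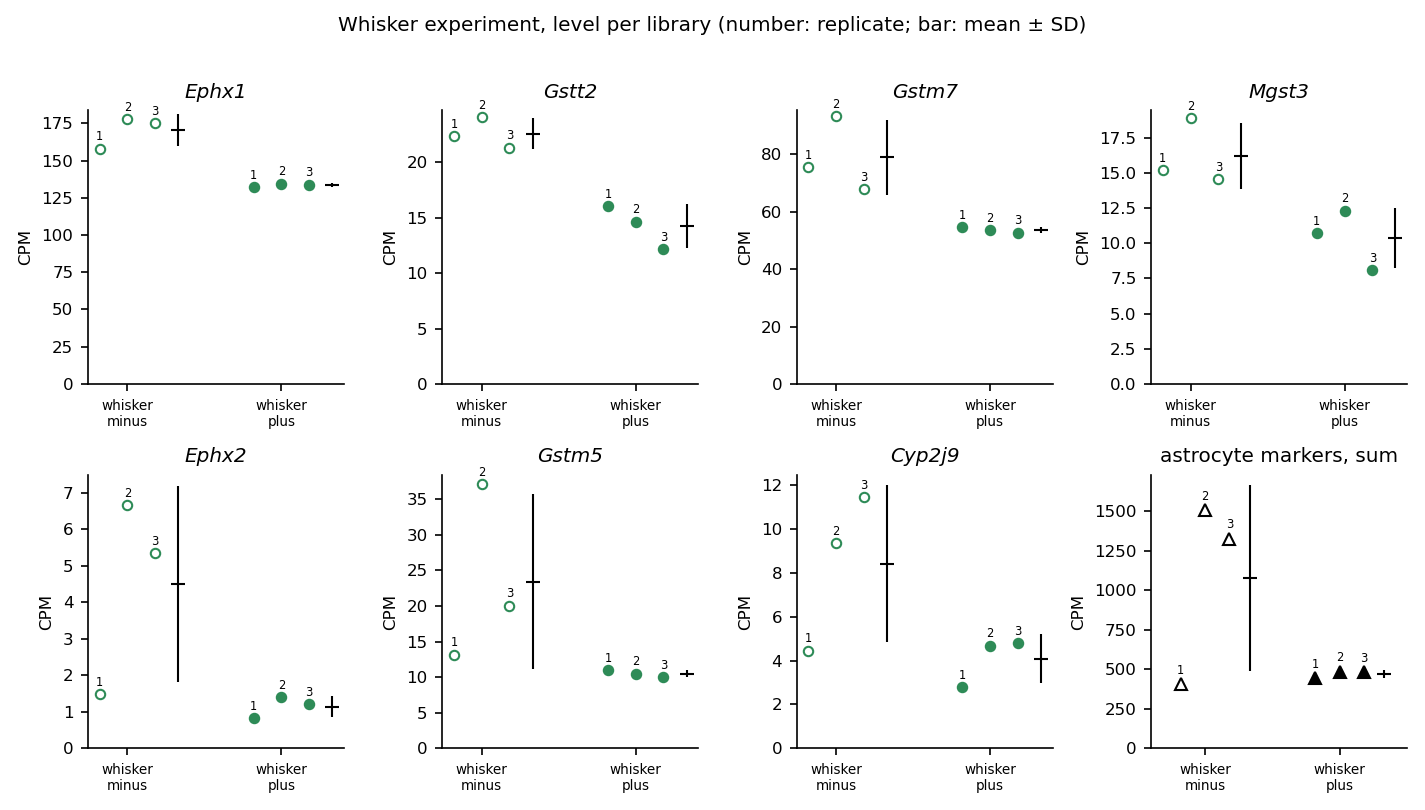
CPM per library in the whisker experiment for 7 members and, with triangles, for the sum of 12 astrocyte markers (open symbols are whisker minus, filled whisker plus, small numbers the replicate, bars the mean ± SD, n = 3). The groups do not overlap for any of these members except Cyp2j9, and Ephx1, Ephx2, Gstm5, Cyp2j9 and the marker sum are higher in both whisker minus 2 and 3 than in the other 4 libraries.

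The whisker result also depended on single libraries. With the block the number of members called, of 40, was 20, 5 and 0 when pair 1, 2 or 3 was left out, where 18.3%, 5.36% and 0.0078% of all genes were called. Without the block 3 members were called when whisker minus 1 was left out (2.67% of all genes). The authors' deposited table marks 7 members down and 1 up in this comparison (1.33% and 1.91% of all its genes), and gives an FDR under 0.05 for 4 of 40, Aldh4a1, Ephx2, Gstm5 and Gstt2 (2.57% of all genes with one).

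Aldh4a1 was called in none of the 3 experiments in the limma fit of all libraries without the block. It fell in several other fits, among them with the block under activation and with whiskers, and without silencing control 2 under silencing. The authors' deposited table gives it an FDR of 0.0249 under activation, 0.160 under silencing and 2.97e-05 with whiskers. With the block it was not called under silencing. Silencing control 2 held 23.3 CPM of it, less than any silencing library. Outside that library its control values over the 3 experiments were 43.6 to 71.03 CPM and its treated values 26.03 to 44.3 CPM. Gsta4 fell in 2 of the experiments, without silencing control 2 under silencing and with the block with whiskers. Por rose in the first of these fits and fell in the second. Neither Gsta4 nor Por was called in the limma fit of all libraries without the block. A coding gene on the same strand, Gm21969, shares 32.5% of the exon bases of Aldh4a1. How the counting treated reads in these shared bases is not stated. Other members share fewer exon bases with a neighbour, except Hmox2, of which 40.2% overlaps Cdip1 on the opposite strand. No source used here says whether the counting used strand. The transferases of the mu and theta classes are close paralogs, and reads could be split between them.

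Other genes of the same pathways were taken from 3 lists. Of 28 further NRF2 pathway genes tested, none was called under activation without the block and 1 rose with it, Gpx1 (0.64, adjusted p = 0.0282), a glutathione peroxidase. Of 6 further genes of the aryl hydrocarbon receptor pathway, 1 rose with the block, Ptges3 (0.46, adjusted p = 0.0414), a co-chaperone. Of 41 further phase 1 and 2 enzymes, 1 rose with the block, Aldh18a1 (0.78, adjusted p = 0.0424), an enzyme of proline synthesis, and 30 lay below 0. Under activation 1.03% of all genes rose and 0.792% fell with the block, and 51.6% lay below 0. Under silencing none of the 3 lists had a call with or without the block. Without silencing control 2, 7 of 28, 1 of 6 and 5 of 42 fell, where 7.35% of all genes fell. In the same fit 1, 0 and 2 rose, where 4.11% of all genes rose. In the fit of the difference of effects without the block, Ptges3 and Aldh18a1 lay higher under activation than under silencing by 0.74 and 1.18 (adjusted p = 0.0256 and 0.00657). Of all genes 1.46% were called higher in that fit.

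In the whisker comparison 34 of 40 further phase 1 and 2 enzymes lay below 0, against 64% of all genes. With the block 8 of the 40 fell and none rose, against 5.6% and 2.99% of all genes. The ones with the smallest p were Aldh5a1 (-0.72, adjusted p = 0.0152), Dhrs3 (-0.68, adjusted p = 0.0161), Maob (-0.56, adjusted p = 0.0261), Aox1 (-0.50, adjusted p = 0.0343) and Aldh1l1 (-1.27, adjusted p = 0.0352). Of these, Aldh1l1 is itself a common marker of astrocytes, and Maob is also abundant in them. Of the 28 further NRF2 pathway genes, 2 rose, Gpx1 (0.44, adjusted p = 0.00639) and Maff (0.48, adjusted p = 0.0121), and none fell. Of the 28, 17 lay below and 11 above 0, against 64% and 36% of all genes. Of the 6 further genes of the aryl hydrocarbon receptor pathway, 2 chaperones rose, Hsp90ab1 (0.56, adjusted p = 0.00339) and Ptges3 (0.64, adjusted p = 0.00439). Arnt2, a paralog of the receptor's partner Arnt, fell (-1.42, adjusted p = 0.00969). Without the block none of these passed.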

How the data were processed

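RNA of CD31-sorted mouse brain endothelial cells was sequenced in paired reads of 100 bases, per the labels' protocols. The authors deposited CPM values for 37991 genes in 22 libraries, together with their own p-values, FDR values and log2 fold changes, as the file headers name them. Tools listed in the submitters' processing notes are HTSeq 0.6.1, SAMtools 0.1.19, Bowtie2 2.2.1 and TopHat2 2.0.11, besides DESeq2 and the build mm9, with no roles stated. All CPM values were whole multiples of the smallest one in their column within 0.01 read (100%), which gave back the reads.

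The members and gene lists were chosen with earlier results of these data known. All members are named, and values per library are given for those that passed a test in some fit, or whose groups did not overlap with an unadjusted p under 0.05. Genes of the other lists are named if called, up to 10 per comparison. Tests covered genes that reached 1 CPM in at least 4 libraries (3 for whisker), on log2(CPM + 1) with limma 3.58.1 (trend, R 4.3.3), without further scaling, with Benjamini-Hochberg adjustment over all genes tested. On this scale the fold change of a low gene is understated. The labels call the samples biological, with no word on whether mice were pooled in the DREADD libraries, and p-values measure the spread between these libraries. Alternatives were TMM or RLE scaling, testing all genes, a smaller pseudocount (0.1), 1 fit over the 22 libraries, a replicate block and leaving out libraries. DESeq2 1.42.0 and edgeR 4.0.16 (quasi-likelihood) were also run on the recovered reads. Leaving out whisker minus 2 and 3 together was chosen after seeing the data. Silencing control 2 was likewise singled out by its values in these data. The fits were tested on simulated data.

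Same-numbered libraries deviated together in all comparisons (r = 0.142 to 0.617 over genes), each most with its own number, and the titles give the numbers. Exon lengths and overlaps are from GENCODE M21, in which all 41 members were found, and promoters from RefSeq (GRCm38.p6).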

Additional observations from a re-analysis of the deposited data

Results flagged for a closer look

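In the 30 groups of 4 libraries tested for a value far from the others, 3 were found, where chance gives about 1 in 20. Por in silencing control 2, at 259.9 CPM, lay far above the other silencing controls. Gsta4 in silencing 4, at 74.2 CPM, lay below the other silencing libraries, and Aldh4a1 in silencing 3, at 34.8 CPM, lay above them. The effect on Akr1e1 differed between the activation and silencing experiments, by -1.36 on the log2 scale.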

How the results depend on the processing

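The number of members called under activation, 1 in the limma fit as reported, was 0 with RLE scaling, TMM scaling, no filter, or the replicate block without filter, 2 with all 22 libraries, the replicate block, or the replicate block and TMM scaling, and 4 with DESeq2. With the block 0.792% of all genes were called lower and 1.03% higher under activation. Under silencing, 0 became 3 with DESeq2 (3.55% of all genes). In the whisker comparison, 0 became 12 with the replicate block (5.6% of all genes lower and 2.99% higher) and 6 with DESeq2 (3.18%). It became 8 with the block and TMM scaling, and 0 with the block and no filter. For the difference of effects, 1 became 2 with TMM scaling, all 22 libraries, DESeq2 or edgeR, 3 with the replicate block and 4 with the block and TMM scaling. With the block 2.33% of all genes were called lower and 4.02% higher. Leaving out single libraries gave 0 to 1 called members for activation, 0 to 7 for silencing, 0 to 3 for whisker and 1 to 4 for the difference; leaving out a numbered pair under the block gave 0 to 2, 0 to 10, 0 to 20 (20, 5 and 0 for whisker pairs 1, 2 and 3) and 1 to 6. For fits without a share of all genes, here or above, the counts do not show whether members changed more often than other genes. Leaving out whisker minus 2 and 3 together leaves a single control, and gave fold changes only. The cause was not tested. Over 37 fold changes of described members, 826 alternative values kept their sign in every case. The members were picked for passing in some of these fits or for groups that did not overlap, so this does not measure stability. Of the values, 719 stayed on their side of the threshold, 94 passed it and 13 no longer did. Only Akr1e1, under activation and in the difference of effects, was called in the fit as reported. Most of the 719 are therefore uncalled results that stayed uncalled. All 13 were for Akr1e1 under activation, whose adjusted p ranged from 1.94e-10 to 0.145. The median of the members ranged from -0.254 to -0.085 for activation, from -0.185 to -0.048 for silencing and from -0.325 to -0.176 for whisker. The block changed no other call of a member than those named. With 3 or 4 libraries a group, many changes smaller than the spread between libraries could have been missed.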
